A study of Mus musculus with 2 samples.

Results

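The genes described here are the autophagy receptor p62 (*Sqstm1*) and 9 genes of the autophagy machinery, *Ulk1*, *Becn1*, *Atg5*, *Atg7*, *Atg12*, *Map1lc3a*, *Map1lc3b*, *Gabarapl1* and *Tfeb*. They were chosen by gene symbol, and the counts of all transcripts that carry a symbol were summed. They make up 10 of the 45777 genes in the table, and all 10 were among the 15857 genes tested, those for which either library held 10 or more counts. Livers of C57BL/6 N mice were profiled by RNA sequencing of poly-A RNA. The mice were 7 weeks old when the high-fat diet (HFD) began and were fed it for 18 weeks, and at week 13 they received an adeno-associated virus (AAV) by retro-orbital injection. The control group received AAV-GFP, which expresses green fluorescent protein, and the other group received AAV-*Wee1-AS*, which overexpresses the long noncoding RNA *Wee1-AS*. Both groups were on HFD, so no liver of mice on another diet enters the comparison. The virus was AAV9 with a CMV promoter, which is not restricted to hepatocytes. The design text speaks of 4 liver samples, and 1 library per group was analysed here. The comparison therefore has no replicate check and no p-value. The level of *Wee1-AS* itself was not analysed here. The study named autophagy as a possible part of the action of *Wee1-AS* that needed investigation. Its basis included accumulation of p62 protein after knockdown of *Wee1-AS* in primary hepatocytes. The comparison here is of RNA in whole liver with *Wee1-AS* overexpressed. It differs from that experiment in molecule, material and direction of the change in *Wee1-AS*.

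Autophagy delivers cytoplasmic material to lysosomes in double-membrane vesicles. The ULK1 kinase complex starts the process, and the lipid kinase complex that contains Beclin 1 marks the membrane from which the vesicle grows. The ATG7 enzyme activates ATG12 for its conjugation to ATG5, and the conjugate promotes the attachment of LC3 and GABARAP proteins, the ATG8 family, to the membrane lipid. Receptors such as p62 bind ubiquitinated cargo on one side and ATG8 proteins on the other, so p62 is itself degraded with its cargo. In the liver, loss of autophagy is known to cause accumulation of p62 protein. RNA levels do not measure this flux.

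*Sqstm1* and *Gabarapl1* were the most abundant of the 10 genes, so the 250 bases before their RefSeq start sites (GRCm38.p6, the same build as mm10) are shown. In the sequences, written 5′ to 3′ in the direction of transcription, capitals mark each GC box, the letters GGGCGG on either strand, so that it also reads CCGCCC. The *Sqstm1* window lies at chr11:50210821-50211070 on the minus strand, and the *Gabarapl1* window lies at chr6:129532942-129533191 on the plus strand.
Sqstm1: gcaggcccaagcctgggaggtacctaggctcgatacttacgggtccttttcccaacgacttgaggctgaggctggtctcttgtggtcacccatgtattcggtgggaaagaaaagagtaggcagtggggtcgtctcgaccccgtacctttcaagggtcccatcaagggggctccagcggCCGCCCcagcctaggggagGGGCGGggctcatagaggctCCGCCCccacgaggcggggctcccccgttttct
Gabarapl1: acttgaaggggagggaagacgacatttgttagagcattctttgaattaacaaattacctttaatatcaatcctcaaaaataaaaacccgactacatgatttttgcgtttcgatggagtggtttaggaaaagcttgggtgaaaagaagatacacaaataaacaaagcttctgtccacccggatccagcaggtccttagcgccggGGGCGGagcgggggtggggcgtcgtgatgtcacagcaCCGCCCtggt

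The *Sqstm1* window had a GC content of 63.2% and 3 GC boxes, and the *Gabarapl1* window had a GC content of 46.8% and 2 GC boxes, beside a median GC content of 52.4% over 32851 RefSeq windows of the same length. A GC box was present in 32.7% of all windows. Windows were at hand for 7 of the 10 genes, and those of *Ulk1* (5 matches), *Map1lc3b* (1 match), *Atg5* (1 match) and *Tfeb* also held a GC box. The E-box CACGTG, whose letters contain the core bound by TFEB and related factors, was present in 6.02% of all windows. It occurred in the window of *Atg5* and in that of an internal predicted start of *Atg7*, and in neither of the printed windows. TATAAA, found in 12.4% of all windows, and TGACNNNGC, the core of the antioxidant response element, found in 10.2%, were read on both strands and had no match in the windows of these genes. A match of letters is a description and not a binding site.

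None of the 10 genes passed 2-fold between the libraries, whereas 31.0% of all genes tested did. Genes at low counts are among all genes tested, and the 10 were not compared with genes of like level. With at least 10 counts required in both libraries, 27.0% of all genes passed. The share of all genes depended on the processing, and was 8.43% in FPKM and 12.9% in TPM (each with a pseudocount of 1) and 14.9% with GC content and length trends removed, where again none of the 10 passed. With upper quartile scaling 2 of the 10 passed (*Sqstm1* and *Map1lc3a*), and with the length trend removed 1 did (*Becn1*). With AAV-*Wee1-AS*, *Sqstm1* and 6 further genes were lower (*Map1lc3a*, *Atg7*, *Gabarapl1*, *Map1lc3b*, *Tfeb* and *Ulk1*), and 3 were higher (*Becn1*, *Atg12* and *Atg5*). Levels within a library are given in TPM, which accounts for transcript length. Differences are given as log2 ratios of scaled estimated counts, AAV-*Wee1-AS* over AAV-GFP, with a 95% interval that covers counting error only. The interval takes the estimated counts as independent counts, which they are not strictly, so it may be too narrow. The interval of the ratio lay wholly below 0 for 7 genes and wholly above 0 for 3, and at this depth the same was true of 38.0% and 39.1% of all genes tested, respectively. The median log2 ratio of the 10 genes was −0.28, beside −0.016 over all genes tested. With GC content and length trends removed, the median of the 10 was 0.056 and 5 of them were lower.

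**Figure D1:**
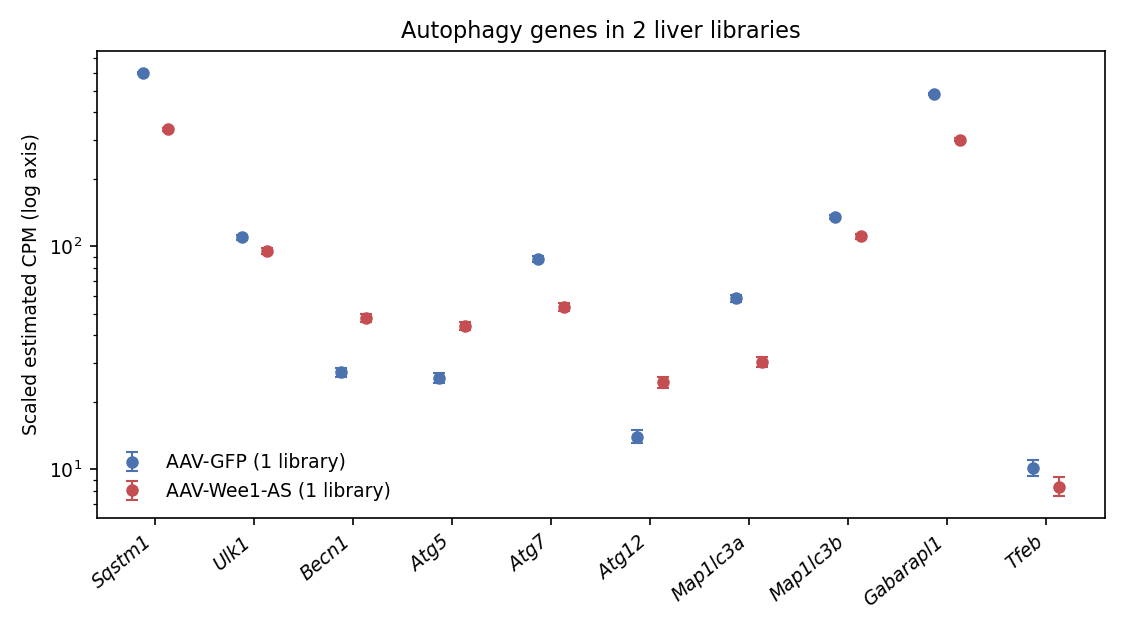
Scaled estimated CPM (log axis) of the 10 autophagy genes with AAV-GFP and with AAV-*Wee1-AS*. Points are single libraries and bars are 95% counting intervals. *Becn1*, *Atg5* and *Atg12* are higher with AAV-*Wee1-AS*, and the other 7 genes are lower.

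*Sqstm1* (NCBI gene 18412, chr11:50200152-50210820, minus strand, mm10) encodes p62, which binds ubiquitin chains, ATG8 proteins and KEAP1. It had 33941 estimated counts with AAV-GFP and 15804 with AAV-*Wee1-AS*. Its level was 516 TPM and 283 TPM, the highest of the 10 genes in the AAV-GFP library and the second highest, after *Gabarapl1*, in the other. The log2 ratio was −0.84 (−0.87 to −0.81), or 0.559 times the control level. It was −0.28 with GC content and length trends removed, and −1.05 with upper quartile scaling. Both transcripts of *Sqstm1* were lower. NM_011018 had 24557 and 11753 counts, and NM_001290769 had 9384 and 4051. The share of NM_011018 was 72.4% and 74.4%, so their balance differed little.

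*Ulk1* (chr5:110784489-110810120, minus strand) encodes the kinase that starts autophagy and is inhibited by mTORC1 and activated by AMPK. It had 6212 counts (36.2 TPM) with AAV-GFP and 4494 counts (31.1 TPM) with AAV-*Wee1-AS*. The log2 ratio was −0.20 (−0.26 to −0.15). It was not shared by all transcripts. The curated transcripts NM_009469 (3779 and 2799 counts) and NM_001347394 (1533 and 1504 counts) had ratios of −0.17 and 0.24, whereas the predicted transcripts XM_011249420 (498 and 24 counts) and XM_011249419 (382 and 53 counts) had ratios of −4.01 and −2.55. Another predicted transcript, XM_006534852, had 20 counts with AAV-GFP and 114 with AAV-*Wee1-AS*. With curated transcripts alone, the log2 ratio of *Ulk1* was 0.000896, and with GC content and length trends removed it was 0.12.

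*Becn1* (chr11:101288258-101302286, minus strand) encodes Beclin 1, the scaffold of the lipid kinase complex. It had 1539 counts (23.1 TPM) with AAV-GFP and 2248 counts (39.9 TPM) with AAV-*Wee1-AS*. The log2 ratio was 0.81 (0.72 to 0.90), in the direction opposite to that of *Sqstm1* and *Ulk1*. With GC content and length trends removed, *Becn1* was at 0.25. *Ulk1* was then also above 0, at 0.12, and *Sqstm1* was at −0.28. The main transcript of *Becn1*, NM_019584, had 1519 and 2007 counts, and its share of the gene was 98.7% and 89.3%. NM_001359819 had no counts with AAV-GFP and 147 with AAV-*Wee1-AS*, 58.8-fold higher when the AAV-GFP library is set to a floor of 3 counts. The interval of its log2 ratio began at 5.56. NM_001359820 had 4 and 67 counts. Counts of transcripts are shares that the authors' program assigned to overlapping models, and how much of these differences lies in the assignment was not tested.

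*Atg5* (chr10:44268322-44364299, plus strand) and *Atg12* (chr18:46732417-46741724, minus strand) encode the partners of the conjugate that drives ATG8 lipidation. *Atg5* had 1451 counts (18.7 TPM) with AAV-GFP and 2074 counts (31.5 TPM) with AAV-*Wee1-AS*, a log2 ratio of 0.78 (0.68 to 0.88). *Atg12* had 793 counts (9.73 TPM) and 1159 counts (16.7 TPM), a log2 ratio of 0.81 (0.68 to 0.94). Both partners were thus higher by a similar ratio, and their intervals overlap. With GC content and length trends removed, *Atg5* was at 0.13 and *Atg12* at 0.12. *Atg12* overlaps *Ap3s1* on the opposite strand, which had 849 and 821 counts. The library kit keeps strand, but whether the counting used it is not given in the sources used here.

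*Atg7* (chr6:114643097-114860614, plus strand) encodes the enzyme that activates both ATG12 and the ATG8 proteins. It had 4964 counts (43.3 TPM) with AAV-GFP and 2522 counts (26.9 TPM) with AAV-*Wee1-AS*. The log2 ratio was −0.71 (−0.78 to −0.64), opposite in sign to those of *Atg5* and *Atg12*. The ratio of *Atg5* to *Atg7* in TPM was 0.431 with AAV-GFP and 1.17 with AAV-*Wee1-AS*. With GC content and length trends removed, the log2 ratios of *Atg5* and *Atg7* were 0.13 and −0.48, closer to each other than before. The main transcript, NM_028835, had 3142 and 1359 counts, and its share was 63.3% and 53.9%. The predicted transcript XM_011241494 had 380 and 354 counts, and its share was 7.66% and 14.0%. XM_006506709 had no counts with AAV-GFP and 45 with AAV-*Wee1-AS*.

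**Figure D2:**
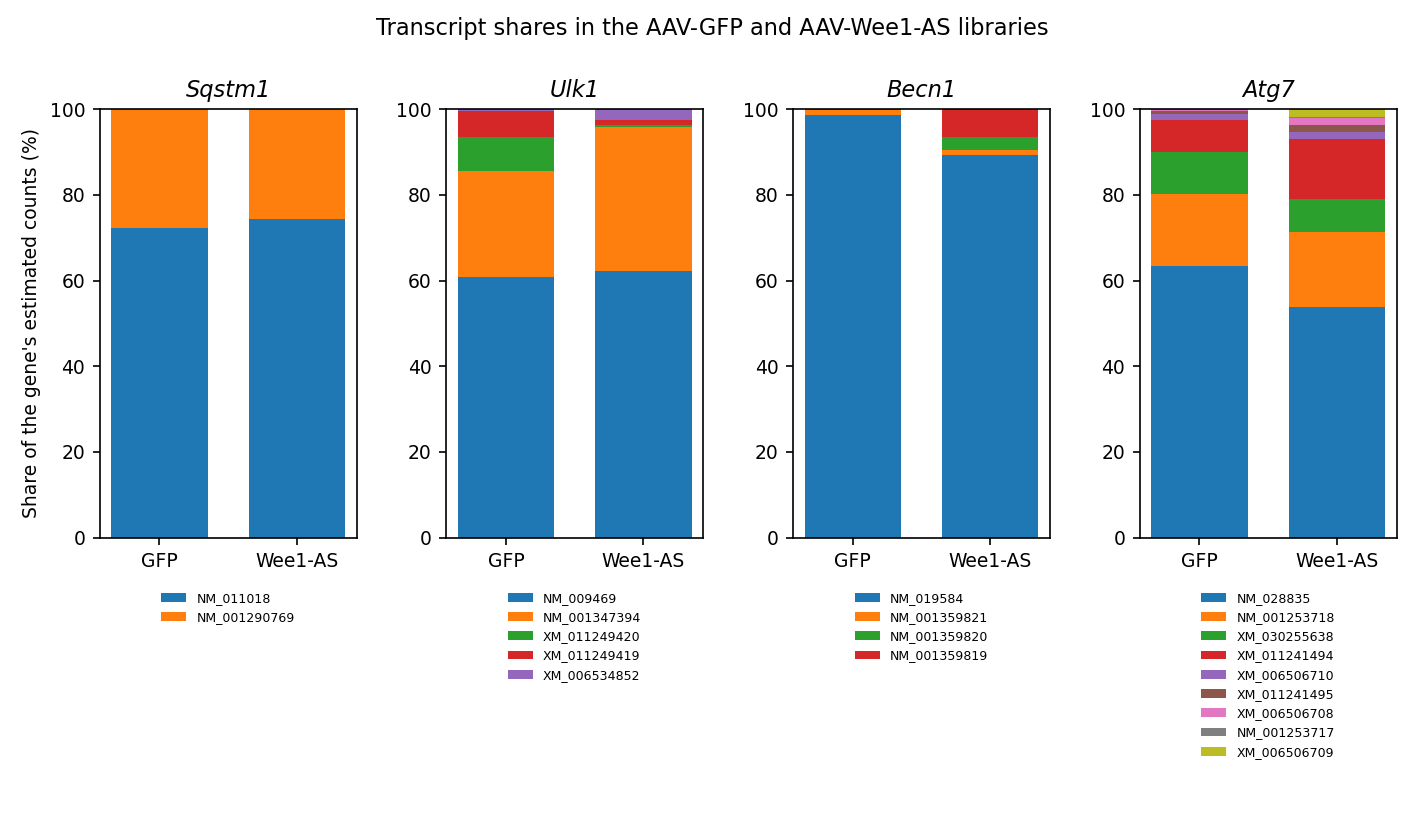
Share of each transcript in the estimated counts of *Sqstm1*, *Ulk1*, *Becn1* and *Atg7* (%), with the AAV-GFP library on the left and the AAV-*Wee1-AS* library on the right of each panel (1 library each). The balance of the *Sqstm1* transcripts differs by little, whereas 2 predicted *Ulk1* transcripts, XM_011249420 and XM_011249419, and the main transcripts of *Becn1* and *Atg7* take smaller shares with AAV-*Wee1-AS*.

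The 3 genes of the ATG8 family among the 10 were all lower with AAV-*Wee1-AS*. *Gabarapl1* (chr6:129533192-129542331, plus strand), a GABARAP-type ATG8 protein, had 27237 counts (466 TPM) with AAV-GFP and 14194 counts (287 TPM) with AAV-*Wee1-AS*, a log2 ratio of −0.68 (−0.71 to −0.65). *Map1lc3a* (chr2:155276364-155278073, plus strand), which encodes LC3A, had 3304 counts (96.1 TPM) and 1433 counts (49.1 TPM), a log2 ratio of −0.94 (−1.03 to −0.85). This was 0.521 times the control level, and its interval reached past 2-fold, but with GC content and length trends removed *Map1lc3a* was at −0.024. *Map1lc3b* (chr8:121590438-121598760, plus strand), which encodes LC3B, the protein most used to follow autophagosomes, had 7665 counts (94.7 TPM) and 5236 counts (76.3 TPM), a log2 ratio of −0.29 (−0.34 to −0.24). *Map1lc3a* and *Map1lc3b* stood at nearly the same level with AAV-GFP, and *Map1lc3b* was the higher of the pair with AAV-*Wee1-AS*. *Map1lc3b* overlaps the end of *Zcchc14* on the opposite strand, which had 905 and 1234 counts. A single transcript is listed for *Gabarapl1*, and a main transcript held 98.6% and 98.9% of the counts of *Map1lc3a* and 96.9% and 96.2% of those of *Map1lc3b*.

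With the other ATG8 genes, *Gabarap* (521 and 306 TPM, log2 ratio −0.74) and *Gabarapl2* (95.5 and 74.5 TPM, log2 ratio −0.33), the 5 genes of the family summed to 1274 TPM with AAV-GFP and 792 TPM with AAV-*Wee1-AS*. All 5 were lower, by unequal amounts that depended on the trends with GC content and length: without these trends, *Gabarapl2* was at −0.75, *Gabarap* at −0.43, *Gabarapl1* at −0.16, *Map1lc3a* at −0.024 and *Map1lc3b* at −0.0055. The shares that follow are of the deposited TPM, with no trend removed. Within the family, the share of *Map1lc3b* was 7.43% and 9.63% and that of *Gabarapl2* was 7.49% and 9.40%, whereas the share of *Map1lc3a* was 7.54% and 6.20%. *Gabarapl1* had 36.6% and 36.2%, and *Gabarap* had 40.9% and 38.6%.

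*Tfeb* (chr17:47737037-47792416, plus strand) encodes a transcription factor of lysosomal and autophagy genes that is held in the cytoplasm by mTORC1. It was the least abundant of the 10 in both libraries, with 575 counts (7.49 TPM) with AAV-GFP and 394 counts (5.89 TPM) with AAV-*Wee1-AS*. The log2 ratio was −0.28 (−0.47 to −0.094), the widest interval of the 10. With GC content and length trends removed, *Tfeb* was on the other side of 0, at 0.22. NM_001161722 held 91.3% and 87.8% of its counts. Predicted transcripts at 23 counts in 1 library and 0 in the other were seen in both directions, XM_030249637 with AAV-GFP and XM_006524007 with AAV-*Wee1-AS*.

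**Figure D3:**
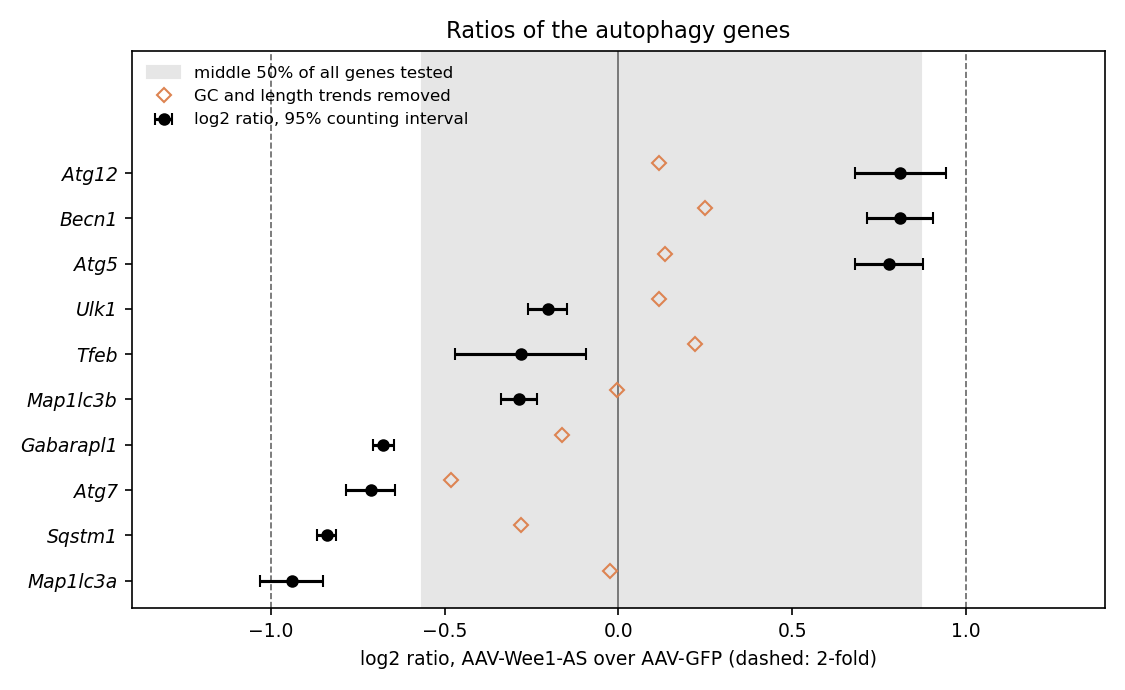
log2 ratio of AAV-*Wee1-AS* over AAV-GFP for the 10 genes (black points, 95% counting interval), the same after removal of trends with GC content and length (open diamonds), and the middle 50% of all genes tested (grey band). All 10 points lie inside the dashed 2-fold lines, and 4 genes lie below the grey band, *Map1lc3a*, *Sqstm1*, *Atg7* and *Gabarapl1*.

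The middle 50% of all genes tested spanned log2 ratios from −0.56 to 0.87. *Map1lc3a*, *Sqstm1*, *Atg7* and *Gabarapl1* lay below this range, and none of the 10 lay above it. Summed over the 10 genes, the level was 1312 TPM with AAV-GFP and 847 TPM with AAV-*Wee1-AS*. *Sqstm1* and *Gabarapl1* made up 74.9% and 67.3% of these sums, so the sum mainly reports these 2 genes. In bulk liver, fewer cells that express a gene and less RNA per cell cannot be told apart.

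The direction of the 10 genes followed the GC content of their transcripts. The 3 higher genes had a GC content between 44.3% and 45.0%, and the 7 lower genes had one between 51.5% and 63.2%. Across 14995 genes with a known GC content, the log2 ratio was negatively related to GC content (Spearman's rho −0.67 across genes, which share the same 2 libraries and are not independent replicates). The genes were divided by GC content into 10 groups of nearly equal size, and the group with the content of *Becn1*, *Atg5* and *Atg12* had a median log2 ratio of 0.72, close to 0.81, 0.78 and 0.81 for these 3 genes. The groups of the 7 lower genes had medians from −0.69 to −0.12. *Sqstm1* was 0.34 below the median of its group, *Gabarapl1* also 0.34 below it and *Atg7* 0.38 below it. *Ulk1* and *Tfeb* were 0.49 and 0.41 above theirs, and *Map1lc3a* was 0.25 below. Compared with the middle 50% of their own group, *Sqstm1*, *Atg7*, *Gabarapl1* and *Map1lc3a* lay below it, *Ulk1* and *Tfeb* lay above it, and the other 4 lay inside it.

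**Figure D4:**
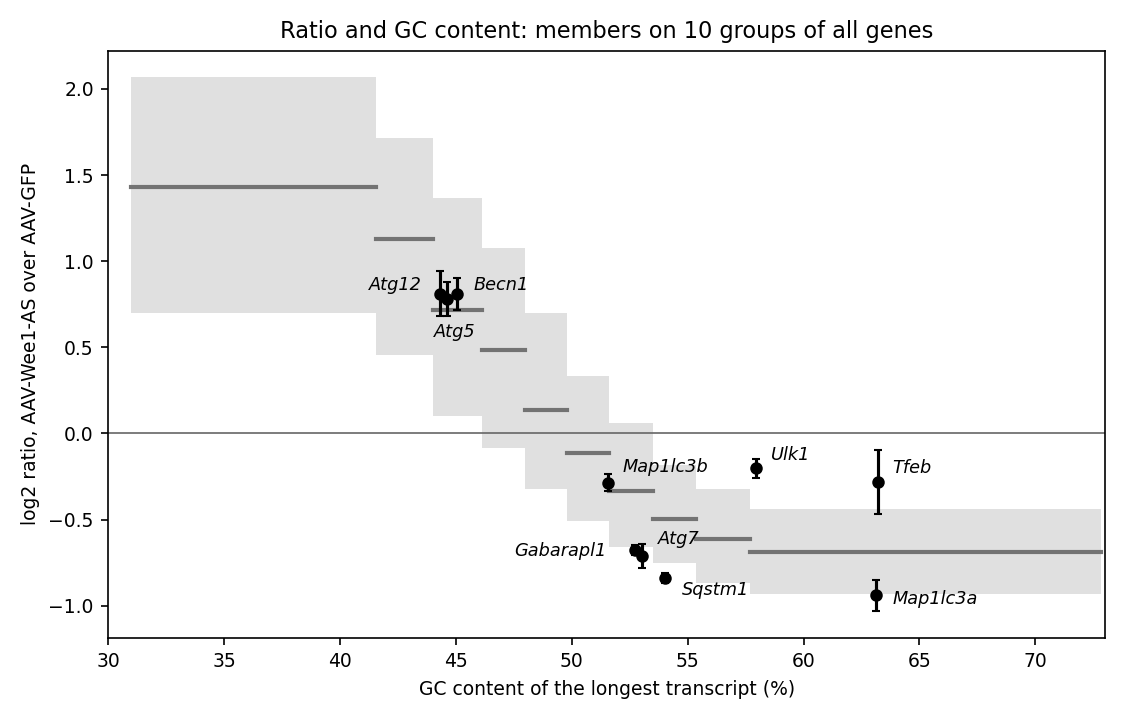
log2 ratio of AAV-*Wee1-AS* over AAV-GFP against the GC content of the longest transcript (%), for the 10 genes (points, 95% counting interval) on 10 groups of all genes by GC content (grey lines, medians; grey boxes, middle 50%). *Becn1*, *Atg5* and *Atg12* lie near the median of 0.72 of their group, *Sqstm1*, *Gabarapl1* and *Atg7* lie below the box of their group, and *Ulk1* and *Tfeb* lie above it.

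After removal of the trends of the log2 ratio with GC content and length, the median of the 10 genes was 0.056 and their range was −0.48 to 0.25. *Atg7* (−0.48), *Sqstm1* (−0.28) and *Gabarapl1* (−0.16) had the lowest values, *Map1lc3a* (−0.024) and *Map1lc3b* (−0.0055) were near 0, and *Becn1* (0.25), *Tfeb* (0.22), *Atg5* (0.13), *Ulk1* (0.12) and *Atg12* (0.12) were above it. The middle 50% of all genes then spanned −0.43 to 0.37, so *Atg7* alone of the 10 lay outside it. *Ulk1* and *Tfeb* thereby changed sign. The part of the GC trend in each gene's difference was not tested, and with 1 library per group the virus and the library cannot be told apart.

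The pathway around these genes was described with 11 lists of 125 further genes, all of them tested. Of these, 24 were higher past 2-fold and 2 were lower, beside 22.2% and 8.71% of all genes tested, and 20.8% of the 125 passed in either direction. With upper quartile scaling, 21 were higher and 10 were lower, beside 18.5% and 14.1% of all genes tested. With 1 added to FPKM or to TPM before the log, the share of the 125 past 2-fold was 14.4% and 16.8%, above the 8.43% and 12.9% of all genes. The 125 genes and all genes tested were not matched for expression level, which weighs on a comparison with a pseudocount. The median log2 ratio of the 125 genes was −0.0099. Intervals that lay wholly past 2-fold were found for 22 higher genes and 2 lower genes, and for 16.0% and 3.72% of all genes tested. With the GC content and length trends removed, 4 were higher past 2-fold (2 receptors, 1 gene of the mTORC1 and AMPK list and 1 of the ATG9, ATG2 and WIPI list) and 3 were lower (2 lysosome genes and 1 conjugation gene), beside 6.69% and 8.18% of all genes with a GC content. All calls of higher genes in the other lists ended with the trends removed. Among the genes named by rule, *Wdr45* (0.00995), *Tex264* (0.082), *Vps41* (−0.026) and *Lamp2* (−0.41) then changed sign. Of the 24 genes with such an interval, the 15 with the largest ratios had a GC content between 38.9% and 49.8%, beside a median of 49.8% over all genes with a value.

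Of the 4 further genes of the initiation complex, *Rb1cc1*, the scaffold FIP200, had 217 counts with AAV-GFP and 909 with AAV-*Wee1-AS* (log2 ratio 2.32), and *Ulk2*, the paralog of *Ulk1*, had 1274 and 2669 (1.33). *Atg13* (4200 and 2323 counts, −0.59) was on the other side of 0, with *Ulk1*. With the trends removed, *Rb1cc1* (0.54) and *Ulk2* (0.57) were no longer past 2-fold. *Atg13* was then at −0.35 and *Ulk1* at 0.12, on opposite sides of 0. None of the 7 further genes of the lipid kinase complex passed 2-fold, beside 31.0% of all genes tested. They ranged from *Ambra1* (−0.38), a regulator of Beclin 1, to *Nrbf2* (0.55), a subunit. None of the 10 genes of ATG9, ATG2 and WIPI proteins, which supply lipid to the growing membrane, passed either, with *Wdr45* (−0.50) lowest and *Atg2b* (0.86) highest.

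In the conjugation list, 3 of 8 genes were higher past 2-fold and none lower, beside 22.2% and 8.71% of all genes tested. *Atg10*, the enzyme that transfers ATG12 to ATG5, had 56 and 149 counts (log2 ratio 1.64), and *Atg4a*, a protease that trims ATG8 proteins, had 253 and 624 (1.56). *Atg16l2* was lowest (287 and 134 counts, −0.83). With the trends removed, none was higher and 1 was lower past 2-fold, with *Atg10* at 0.42, *Atg4a* at 0.55 and *Atg16l2* at −1.18.

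The other autophagy receptors had a median of 0.92, the highest of the 11 lists before the trends were removed. Of these receptors, 6 of 16 were higher past 2-fold and none lower, beside 22.2% and 8.71% of all genes tested. *Tax1bp1*, which like p62 binds ubiquitinated cargo, had 1709 counts with AAV-GFP and 5150 with AAV-*Wee1-AS* (log2 ratio 1.85). *Retreg1* (498 and 1626 counts, 1.97) and *Sec62* (1376 and 3520 counts, 1.62), receptors of the endoplasmic reticulum, were also higher, and *Tex264*, a receptor of the same organelle, was lowest of the list (7993 and 3861 counts, −0.79). *Nbr1*, a partner of p62 with a similar domain plan, was not among the genes named by rule and was singled out after its values were seen. Its log2 ratio was 1.24, and the ratio of *Sqstm1* to *Nbr1* in TPM was 17.9 with AAV-GFP and 4.22 with AAV-*Wee1-AS*. With the trends removed, *Retreg1* (1.07) was still past 2-fold, and *Tax1bp1* (0.52), *Sec62* (0.41) and *Tex264* (0.082) were not. *Nbr1* was then at 0.66, within 2-fold, and *Sqstm1* at −0.28. Of the 16 other receptors, 12 were above 0 and 4 below it, and of all genes tested 50.5% were below 0. With the trends removed, the median of the receptor list was 0.38, below that of the initiation complex (0.41), and 2 of its 16 genes were higher past 2-fold.

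Of 13 genes of autophagosome fusion, 2 were higher past 2-fold and none lower, beside 22.2% and 8.71% of all genes tested. *Vps41* (1216 and 2730 counts, 1.43) was highest and *Vps18* (−0.76) lowest, both tethering subunits. The lysosome list had a median of −0.50, with 1 of 23 genes higher past 2-fold and 2 lower, beside the same shares of all genes. *Lamp2*, a membrane protein of lysosomes, had 12327 and 20547 counts (1.00), on the 2-fold limit. *Atp6v0e*, a subunit of the proton pump, had 3085 and 1036 counts (−1.31). *Atp6v0e* was also lower with the trends removed, at −1.73, whereas *Lamp2* was then at −0.41.

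**Figure D5:**
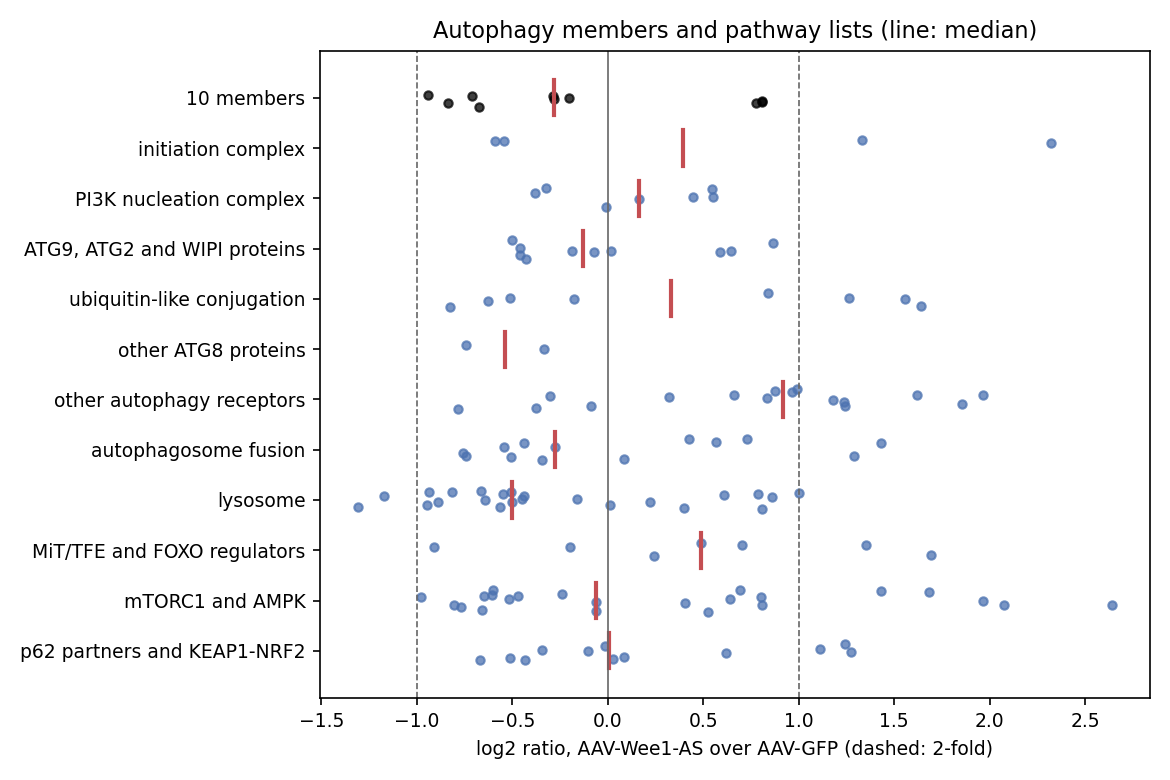
log2 ratio of AAV-*Wee1-AS* over AAV-GFP for the 10 genes (black) and for the genes of 11 pathway lists (blue), with the median of each list (red line) and the 2-fold limits (dashed). Most genes beyond a limit lie on the higher side, and the other autophagy receptors have the highest median (0.92), before removal of the trends.

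Among the 7 further MiT/TFE and FOXO regulators, 2 were higher past 2-fold and none lower, beside 22.2% and 8.71% of all genes tested. *Tfe3*, a paralog of *Tfeb*, had 2173 and 963 counts (−0.91), whereas *Mitf*, another paralog, had 43 and 120 (1.69). *Zkscan3*, a repressor of autophagy genes, had 407 and 869 counts (1.35). Without the trends, *Tfe3* was at −0.68, *Mitf* at 0.44 and *Zkscan3* at 0.97, all within 2-fold.

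Of 23 genes of the mTORC1 and AMPK pathways, which hold back and promote autophagy respectively, 5 were higher past 2-fold and none lower. These 5 were 21.7% of the list, near the 22.2% of all genes tested that were higher. The median of the list was −0.062. *Fnip1* (236 and 1235 counts, 2.64) and *Fnip2* (756 and 2023 counts, 1.68), which bind folliculin and AMPK, were higher, as were *Deptor*, an inhibitor of mTOR (2021 and 7108 counts, 2.08), *Prkaa2*, a catalytic subunit of AMPK (818 and 2664 counts, 1.96), and *Sesn1*, an inhibitor of mTORC1 (246 and 556 counts, 1.43). With the trends removed, *Sesn1* (1.41) remained past 2-fold, and *Fnip1* (0.96), *Fnip2* (0.91), *Deptor* (0.69) and *Prkaa2* (0.16) did not. *Ddit4*, another inhibitor of mTORC1, was lowest (427 and 180 counts, −0.98), and was at −0.17 without the trends.

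Of 12 partners of p62 and genes of the KEAP1-NRF2 pathway, 3 were higher past 2-fold and none lower. Of all genes tested, 22.2% were higher and 8.71% were lower. The median of the list was 0.0052. *Prkci*, an atypical protein kinase C that binds p62, had 281 and 568 counts (1.27), and *Map2k5*, a kinase that also binds p62, had 1589 and 831 (−0.67). *Keap1* and *Nfe2l2* were looked at after their values were seen, because p62 binds KEAP1 and NRF2 is a known activator of *Sqstm1*. Their log2 ratios were −0.43 and 0.086, and −0.011 and −0.26 with the trends removed.

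The estimated counts of the AAV-GFP library summed to 55466182 and those of the other library to 48079335. Hepatocyte markers defined both libraries, with summed scaled levels of 83162 and 100934 CPM (counts relative to the scaled library total) over 10 genes, of which 1 was higher past 2-fold. The median log2 ratio of the 10 was −0.038, with 6 of them below 0, and without *Alb* the other 9 summed to 38222 and 35892 CPM. Of the marker lists of other cells, those of macrophages, stellate cells and lymphocytes held genes past 2-fold, beside 31.0% of all genes tested. Macrophage markers summed to 929 and 654 CPM (3 of 12 higher past 2-fold, 2 lower), stellate cell markers to 515 and 318 (2 of 10 higher, 5 lower), endothelial markers to 353 and 302 (none of 8), cholangiocyte markers to 38.2 and 34.3 (none of 5 tested), lymphocyte markers to 4.65 and 3.50 (1 of 9 higher, 2 lower) and erythroid markers to 1294 and 732 (none of 6 tested). After removal of both trends, none of the stellate cell markers was higher past 2-fold and 4 were lower, 1 macrophage marker was higher and none lower, and 1 lymphocyte marker lay on each side. *Cftr* and *Ms4a1* were at 0 with AAV-GFP. The part of these cells in the differences of the 10 genes was not tested.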

How the data were processed

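The authors deposited 1 table of RefSeq transcripts (mm10) with transcript length and, per library, estimated counts, FPKM and TPM. The deposited estimated counts were whole numbers, obtained by rounding up the product of FPKM and length divided by 1 value for each library. The FPKM values by the authors are per kilobase and scaled to the library, and the TPM values by the authors are scaled to an equal sum. The submitters' processing notes name Trimmomatic 0.38, HISAT2 2.1.0, SAMtools 1.9 and StringTie 2.1.3b, without their roles. TruSeq Stranded mRNA libraries were sequenced on a NovaSeq. Whether mice were pooled is not given in the sources used here.

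Counts were summed per symbol and scaled by TMM over all genes (edgeR 4.0.16, R 4.3.3). A prior count of 2 entered the log2 ratios. A gene was tested if either library held 10 or more of its counts, and "past 2-fold" means a ratio above 2 or below 0.5. Clopper-Pearson 95% intervals took the estimated counts as independent counts and cover counting error only. Reads were paired-end, and whether both reads of a pair entered a count is not given in the sources used here. The intervals may therefore be too narrow. For a fold value, a library at 0 was set to 3 counts. GC content came from the longest GENCODE vM21 transcript (94.6% of genes tested). Trends were removed by lowess fits (span 0.3, 5 cycles; statsmodels 0.14.6, Python 3.11.15). The steps were run on simulated independent counts with planted changes and a planted GC trend. This checked the code, and not whether the intervals hold for these estimated counts. No test across samples was possible with 1 library per group.

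The genes and lists were chosen with earlier results of these data known. By rule, the text names all 10 genes, and, of the pathway genes that reached 50 counts, the 15 with the largest ratios among those with an interval wholly past 2-fold, and the highest and lowest of each list. Alternatives were 3 other scalings (library totals, DESeq2 1.42.0 size factors, upper quartile), another prior count (0.5), 2 other count filters, FPKM and TPM with a pseudocount of 1, curated transcripts, the most abundant transcript, and removal of trends. RefSeq promoter windows were matched by symbol.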

Additional observations from a re-analysis of the deposited data

How the results depend on the processing

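Of the 10 genes, 8 kept their direction under all 12 alternatives. The 2 other count filters could not change the ratio of any of the 10, and the other prior count changed them by little. *Ulk1* was at 0.000896 with curated transcripts and at 0.12 with GC content and length trends removed, and *Tfeb* was at 0.22 with these trends removed. The median of the 10 genes was −0.49 with upper quartile scaling, −0.48 with the length trend removed and 0.056 with GC content and length trends removed. With the upper quartile, 2 genes passed 2-fold, *Sqstm1* (−1.05) and *Map1lc3a* (−1.15). This scaling moved the median of all genes by −0.20, and relative to that shift they were at −0.84 and −0.95 and none of the 10 passed. It also turned the share of all genes past 2-fold from 22.2% higher and 8.71% lower to 18.5% and 14.1%. With the length trend removed, 1 gene passed, *Becn1* (1.00). Of the pathway genes, 26 passed 2-fold, and 7 did with GC content and length trends removed, where 14.9% of all genes passed in place of 31.0%. With a pseudocount of 1, 14.4% of the pathway genes and 8.43% of all genes passed in FPKM, and 16.8% and 12.9% in TPM. In scaled counts the share of the pathway genes, 20.8%, was instead below that of all genes. The pathway genes and all genes were not matched for expression level. The number of pathway genes lower past 2-fold varied from 2 to 10. The causes were not tested beyond these fits. No paired analysis was possible because each group has 1 library. Counting intervals say nothing of the spread between mice, which these 2 libraries do not show.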
